A study of Mus musculus with 12 samples.

Results

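Messenger RNA of 10 circadian clock genes was examined in mouse peritoneal macrophages. The genes were Arntl (also written Bmal1), Clock, Per1, Per2, Per3, Cry1, Cry2, Nr1d1, Nr1d2 and Dbp, taken by symbol from deposited count tables that each listed 16920 genes. All 10 were found, and all 10 were among the 12064 genes tested after a filter on low counts. After LPS, Per2 and Dbp had at most 9 counts in any library, so that they passed that filter on their PBS libraries, and Per3 had at most 21.

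The macrophages came from wild-type (WT) mice or from mice labelled as Ythdf1 knockouts (Ythdf1-/-, written KO-labelled here) on a C57BL/6 background. They were exposed for 6 h to PBS as the control or to 1 µg/mL lipopolysaccharide (LPS), the bacterial cell wall component sensed by Toll-like receptor 4, and 3 biological replicates were sequenced in each of the 4 groups (WT PBS, WT LPS, KO-labelled PBS and KO-labelled LPS). The series record states that starch broth had drawn the cells into the peritoneum and that they were cultured overnight, whereas the methods of the study name thioglycollate. Per the study, the knockout was made with CRISPR/Cas9 and was not limited to macrophages. Mice were 6 to 10 weeks old, an age stated for the experiments in general. The labels do not give the time of day at which mice were killed or RNA was extracted.

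The circadian clock is a feedback loop of transcription and translation that runs in most cells, macrophages included, with a period of about a day. The proteins ARNTL and CLOCK form a pair that binds E-boxes and drives the Per, Cry, Nr1d1, Nr1d2 and Dbp genes. PER and CRY proteins then block that pair, NR1D1 and NR1D2 (REV-ERB alpha and beta) repress Arntl through ROR elements, and DBP activates genes through D-boxes, so that in clock-synchronised tissue Arntl peaks at the opposite phase to Dbp, Nr1d1 and the Per genes.

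Those binding elements were searched in RefSeq promoter windows of build GRCm38.p6, each running from 250 bases before to 50 bases after an annotated start, on both strands. The letters searched were CACGTG for the E-box, TTATGTAA for the D-box, TAGGTCA or TGGGTCA for the ROR element and TGACGTCA for the cyclic AMP response element. Among 32817 windows, 7.15% held the E-box, 0.935% the D-box, 6.46% the ROR element and 1.79% the cyclic AMP element. A window was supplied for 9 of the 10 genes and not for Per2. Per1 and Cry1 each held an E-box, Per3 held 2 D-boxes, and a window of Arntl held a ROR element whose first base was at position 30 after the start. In the windows of Clock, Cry2, Nr1d1, Nr1d2 and Dbp none of these letters occurred, which describes the window alone. The 3 promoters that held an E-box or a D-box are printed because the genes behind them differed widely in their response to LPS. Capitals mark the element, each run reads 5′ to 3′ on the gene's strand and ends at the base before the start, and the runs are chr11:69098699-69098948 (plus strand, Per1), chr10:85185055-85185304 (minus strand, Cry1) and chr4:151044666-151044915 (minus strand, Per3).
Per1 promoter: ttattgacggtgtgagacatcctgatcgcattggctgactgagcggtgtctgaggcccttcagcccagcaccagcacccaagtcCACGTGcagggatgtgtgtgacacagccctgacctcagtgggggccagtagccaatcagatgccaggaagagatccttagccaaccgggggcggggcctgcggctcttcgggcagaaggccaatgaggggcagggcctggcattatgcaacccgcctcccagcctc
Cry1 promoter: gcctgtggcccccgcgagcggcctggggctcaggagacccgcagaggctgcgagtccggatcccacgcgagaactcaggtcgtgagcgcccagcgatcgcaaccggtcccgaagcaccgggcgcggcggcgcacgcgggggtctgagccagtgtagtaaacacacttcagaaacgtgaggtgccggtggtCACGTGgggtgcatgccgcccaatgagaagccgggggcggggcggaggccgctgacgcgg
Per3 promoter: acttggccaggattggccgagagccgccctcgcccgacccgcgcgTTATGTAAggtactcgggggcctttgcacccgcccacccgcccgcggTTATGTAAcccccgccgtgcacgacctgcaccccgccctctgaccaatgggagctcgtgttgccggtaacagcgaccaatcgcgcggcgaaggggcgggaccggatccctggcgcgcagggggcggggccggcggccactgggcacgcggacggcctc

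The Per1 E-box began at position -166 from the start and the Cry1 E-box at position -60, and the Per3 D-boxes began at -205 and -158. A match of letters is a description of the sequence, and binding was not measured.

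Total counts per library lay between 21546274 and 22017005. Levels are given as normalised read counts in CPM (counts scaled to a common library size) after edgeR's TMM scaling, and 3 counts corresponded to 0.105 to 0.187 CPM. Ythdf1, the targeted gene, was at 43.6, 44.97 and 41.9 CPM in the WT PBS libraries and at 55.4, 58.1 and 58.1 CPM in the KO-labelled PBS libraries. After LPS it was at 212, 198 and 194 CPM in WT and at 196, 192 and 205 CPM in KO-labelled cells. The targeted mRNA was therefore not lower in the libraries labelled KO, and its level does not check the label. Macrophage markers were high in every library (8 of 8 above 1 CPM, summed 17170 to 19940 CPM), while the B cell markers summed to at most 1.92 CPM. T cell markers summed to 2.31 to 2.97 CPM in WT PBS, 10.4 to 14.1 CPM in WT LPS, 1.95 to 2.25 CPM in KO-labelled PBS and 5.03 to 5.57 CPM in KO-labelled LPS, and mesothelium markers to 7.76 to 8.22, 8.07 to 10.02, 3.90 to 6.23 and 4.91 to 8.08 CPM in the same order. In each of WT PBS, WT LPS and KO-labelled LPS, 1 of the 6 T cell markers was at 1 CPM or more in every library, and in KO-labelled PBS 0 were. The 5 neutrophil markers analysed summed to 98.97 to 102.4 CPM in WT PBS, 76.99 to 80.3 CPM in WT LPS, 144.9 to 148.9 CPM in KO-labelled PBS and 99.35 to 107.9 CPM in KO-labelled LPS. That sum was higher in the KO-labelled cells under either treatment and lower after LPS, and it came from 1 gene, Mmp8, since Mpo and Elane were at or near 0. Summed fibroblast markers were lower in the KO-labelled cells (32.9 to 46.2 CPM under PBS and 57.0 to 69.5 CPM after LPS) than in WT (75.1 to 88.6 and 118.6 to 132 CPM). Summed skeletal muscle markers were at 15.9 to 35.0 CPM in 8 libraries, and at 0.425 to 0.736 CPM in replicate 3 of KO-labelled PBS and all of KO-labelled LPS. WT LPS replicate 1 also differed from replicates 2 and 3 by a mean chi-square per gene of 32.7 and 25.5, against 3.08 between those 2, and in KO-labelled LPS replicate 2 differed from replicates 1 and 3 by 7.43 and 16.7, where PBS pairs differed by 2.77 to 4.69. In such bulk RNA, fewer cells of a type and less RNA per cell cannot be told apart.

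On the scale of CPM per kilobase of exon, the mean level in WT PBS cells was 3.42 for Nr1d2, 3.02 for Per1, 2.998 for Cry1, 1.89 for Clock, 1.36 for Dbp, 0.983 for Arntl, 0.622 for Nr1d1, 0.405 for Cry2, 0.319 for Per3 and 0.274 for Per2. Neighbours in this order whose replicates overlapped were Nr1d2 and Per1, Per1 and Cry1, Cry2 and Per3, and Per3 and Per2. After LPS the order in WT cells changed to Cry1 at 2.49, Nr1d2 at 1.55, Per1 at 1.28, Clock at 1.16, Nr1d1 at 0.607, Arntl at 0.504 and Cry2 at 0.491, with Per2, Per3 and Dbp at 0.0522, 0.0456 and 0.0255. Replicates lay close together under PBS, with the highest library at most 1.6 times the lowest for any of the 10 genes. The fitted biological coefficient of variation ran from 4.82% for Arntl to 12.1% for Nr1d1, against a median of 6.49% over all genes tested.

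**Figure D1:**
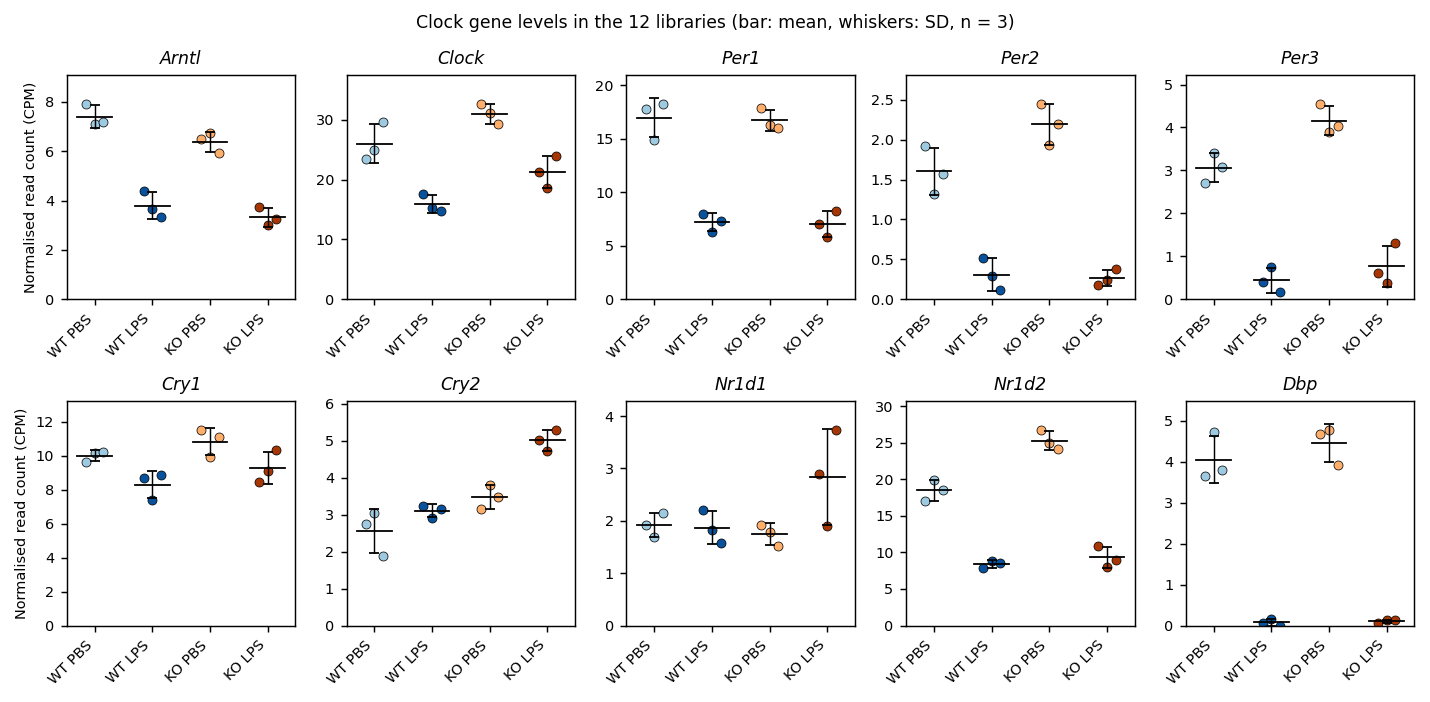
Normalised read count (CPM, linear axis from 0) of each clock gene in the 12 libraries, with points for libraries, a bar for the group mean and whiskers for the SD of 3 replicates. Dbp, Per2 and Per3 dropped close to 0 after LPS in both genotypes, Arntl, Clock, Per1 and Nr1d2 dropped part of the way, and Cry1, Cry2 and Nr1d1 stayed near their PBS level or above it on this scaling, whereas on library totals alone all 3 were below it in both genotypes.

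The first comparison asked how 6 h of LPS changed the clock genes. In WT cells 8 of the 10 genes fell and none rose (edgeR quasi-likelihood test, Benjamini-Hochberg adjusted p under 0.05). Over all genes tested, 76.7% were called in either direction, 40.2% lower and 36.5% higher, so a call by itself was common. A fall of more than 1 on the log2 scale was seen for 5 of the 10, Per1, Per2, Per3, Nr1d2 and Dbp, and for 19.2% of all genes, and the median log2 change was -1.05 for the clock genes and -0.05 for all genes. Per2 and Dbp passed the filter on the group where they were high, and Per3 was close to the filter after LPS, so nothing is read from these counts and medians, in either genotype, against those of all genes. In KO-labelled cells 8 fell and 2 rose, where 79.9% of all genes were called, 41.1% lower and 38.8% higher. For 8 of the 10, in either genotype, no LPS value lay within the PBS range or the reverse, as was so for 78.2% of all genes in WT and 81.3% in KO-labelled cells. In KO-labelled cells the same 5 genes fell by more than 1, as did 22.4% of all genes, and the median was -1.09 against -0.04. Without TMM, on library totals alone, all log2 changes moved down by about as much as the median of all genes (-0.66 in WT and -0.80 in KO-labelled cells), and the split became 0 higher and 10 lower in WT, and 0 higher and 8 lower in KO-labelled cells. Upper-quartile scaling moved the median by -0.31 and -0.36 and gave 0 higher and 8 lower in both. The summed fibroblast and T cell markers were higher after LPS in both genotypes, where only 1 T cell marker was at 1 CPM or more in every library. The neutrophil sum, which came from Mmp8, was lower. The muscle markers were higher after LPS in WT, and in KO-labelled cells they were lower than in replicates 1 and 2 of PBS but not than in replicate 3. The part of these markers in the LPS changes was not tested.

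Dbp, the D-box activator whose mRNA is among the strongest direct outputs of the ARNTL and CLOCK pair, fell furthest. Its level was 3.65, 4.72 and 3.79 CPM in WT PBS and 0.0578, 0.171 and 0 CPM in WT LPS. In KO-labelled cells it was 4.69, 4.77 and 3.93 CPM under PBS and 0.0614, 0.122 and 0.124 CPM after LPS. All 6 LPS libraries were thus at 3 rounded counts or fewer, far under every PBS library. The summed counts were 4 after LPS against 339 under PBS in WT, which gave a 53.3-fold lower level with a 95% exact interval of 20.6 to 197 that covers counting error only. In KO-labelled cells they were 5 against 381, which gave a 43.5-fold lower level with an interval of 18.5 to 135. The fitted log2 change in WT was -5.64, and it was -6.90 without WT LPS replicate 2, whose 3 counts were most of those left. Dbp (chr7:45705088-45710203, GRCm38) shares 18% of its exon bases with Sphk2 on the opposite strand. Whether reads there were counted by strand is not stated, and its deposited counts carried decimals in 11 of 12 libraries. Sphk2 was at 94.6 to 98.2 CPM under PBS and at 156 to 212 CPM after LPS on the same scaling.

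The 3 Period genes, whose products repress ARNTL and CLOCK, all fell, though by different amounts. Per1 was at 17.8, 14.9 and 18.3 CPM in WT PBS and at 7.98, 6.32 and 7.33 CPM in WT LPS, a log2 change of -1.24 ± 0.118 (SE, n = 3 per group, adjusted p = 5.64e-08 by edgeR). Per2 was at 1.92, 1.32 and 1.57 CPM in WT PBS and at 0.521, 0.285 and 0.113 CPM in WT LPS, a change of -2.38 ± 0.349. No p is given for Per2, since it passed the filter on its PBS libraries. Per3 was at 2.71, 3.40 and 3.07 CPM in WT PBS and at 0.405, 0.740 and 0.169 CPM in WT LPS, a change of -2.79 ± 0.341 (adjusted p = 1.14e-06 by edgeR). For all 3, every LPS library lay below every PBS library, but the LPS values of Per2 and Per3 rested on 2 to 13 counts per library. In summed counts, Per2 was 5.27-fold lower (95% exact interval 3.13 to 9.48) and Per3 was 7-fold lower (4.56 to 11.2), for counting error only. Leaving out 1 library moved the Per2 change between -2.98 (without WT LPS replicate 1) and -1.98, and the Per3 change between -3.40 (without WT LPS replicate 2) and -2.41.

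The Period genes also fell in KO-labelled cells, where the largest fitted change was that of Per2 rather than Per3. Per1 was at 17.9, 16.3 and 16.0 CPM under PBS and at 7.06, 5.82 and 8.21 CPM after LPS, a log2 change of -1.25 ± 0.121 (adjusted p = 5.28e-08 by edgeR). Per2 went from 2.45, 1.93 and 2.20 CPM to 0.184, 0.245 and 0.373 CPM (-3.01 ± 0.349, again without a p because of the filter). Per3 went from 4.55, 3.90 and 4.04 CPM to 0.614, 0.367 and 1.31 CPM (-2.44 ± 0.295, adjusted p = 8.61e-07 by edgeR). PBS and LPS libraries of each stood apart, although replicate 3 after LPS kept more Per3 than the other LPS libraries. In summed counts Per2 was 8.22-fold lower (4.69 to 15.7) and Per3 was 5.48-fold lower (3.9 to 7.91). The Per3 change was -3.07 without LPS replicate 3, and no closer to 0 than -2.11 in the other fits that left out 1 library.

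Arntl and Clock, whose products form the activating pair, also fell, by less than Per2, Per3 and Dbp in both genotypes. Arntl was at 7.92, 7.08 and 7.18 CPM in WT PBS and at 4.40, 3.64 and 3.33 CPM in WT LPS with a log2 change of -0.96 ± 0.122 (adjusted p = 1.67e-06 by edgeR). Among KO-labelled libraries it was at 6.48, 6.74 and 5.92 CPM under PBS and at 3.74, 2.999 and 3.23 CPM after LPS (-0.94 ± 0.129, adjusted p = 4.08e-06 by edgeR). Clock was at 23.4, 24.9 and 29.7 CPM in WT PBS and at 17.6, 15.2 and 14.8 CPM in WT LPS (-0.71 ± 0.107, adjusted p = 1.25e-05 by edgeR). The PBS and LPS libraries of both genes stood apart without overlap in either genotype. In KO-labelled cells Clock went from 32.7, 31.1 and 29.3 CPM to 21.2, 18.6 and 24.0 CPM (-0.55 ± 0.103, adjusted p = 0.000125 by edgeR).

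Of the REV-ERB repressors, Nr1d2 fell, and Nr1d1 did not with TMM scaling but did in WT on library totals alone. Nr1d2 was at 17.1, 19.9 and 18.5 CPM in WT PBS and at 7.81, 8.83 and 8.57 CPM in WT LPS (-1.14 ± 0.102, adjusted p = 2.49e-08 by edgeR). Its KO-labelled levels went from 26.7, 25.0 and 24.1 CPM to 10.9, 8.02 and 9.02 CPM (-1.44 ± 0.0998, adjusted p = 6.59e-10 by edgeR). No LPS library reached the lowest PBS library in either genotype. Nr1d1 was at 1.92, 1.68 and 2.15 CPM in WT PBS and at 2.20, 1.82 and 1.58 CPM in WT LPS, and these groups overlapped (-0.04 ± 0.229, adjusted p = 0.885 by edgeR). In KO-labelled cells it was at 1.93, 1.79 and 1.52 CPM under PBS and at 2.88, 1.90 and 3.73 CPM after LPS (0.70 ± 0.217, adjusted p = 0.00768 by edgeR). Replicates 1 and 3 after LPS lay above the PBS range and replicate 2 lay within it. Without replicate 3 the change was 0.45 and the call was lost (adjusted p = 0.0828 by edgeR). On library totals alone the Nr1d1 change was -0.70 in WT (adjusted p = 0.00825) and -0.10 in KO-labelled cells. Nr1d1 (chr11:98767932-98775333, GRCm38) shares 8.55% of its exon bases with Thra on the opposite strand, and its counts carried decimals in 12 of 12 libraries, so its value is uncertain. Thra was at 4.04 to 6.41 CPM in the 12 libraries and passed the test in none of the 5 comparisons.

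The cryptochromes repress ARNTL and CLOCK together with the PER proteins, and their changes were small beside those of the Per genes. Cry1 was at 9.66, 10.2 and 10.2 CPM in WT PBS and at 8.68, 7.40 and 8.86 CPM in WT LPS (-0.27 ± 0.0998, adjusted p = 0.0222 by edgeR). The KO-labelled libraries went from 11.5, 9.93 and 11.1 CPM to 8.47, 9.12 and 10.3 CPM, with overlap (-0.22 ± 0.0984, adjusted p = 0.0488 by edgeR). Both calls were lost with DESeq2 (adjusted p = 0.0801 and 0.12) and with RLE scaling (0.0522 and 0.0798), and in 3 and 8 of the 12 fits that left out 1 library. Cry2 was at 2.75, 3.04 and 1.89 CPM in WT PBS and at 3.24, 2.90 and 3.16 CPM in WT LPS, with overlap (0.28 ± 0.169, adjusted p = 0.147 by edgeR). In KO-labelled cells it rose from 3.15, 3.79 and 3.47 CPM to 5.03, 4.71 and 5.29 CPM without overlap (0.53 ± 0.150, adjusted p = 0.00399 by edgeR), but on library totals alone the change was -0.27. Of the genes whose promoters are printed above, Cry1 and Per1, each with an E-box, changed by -0.27 and -1.24 in WT, and Per3, with 2 D-boxes, by -2.79. The 5 genes with none of the elements in their windows changed by 0.28 (Cry2) to -5.64 (Dbp) in WT. A link between element and response was not tested.

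**Figure D2:**
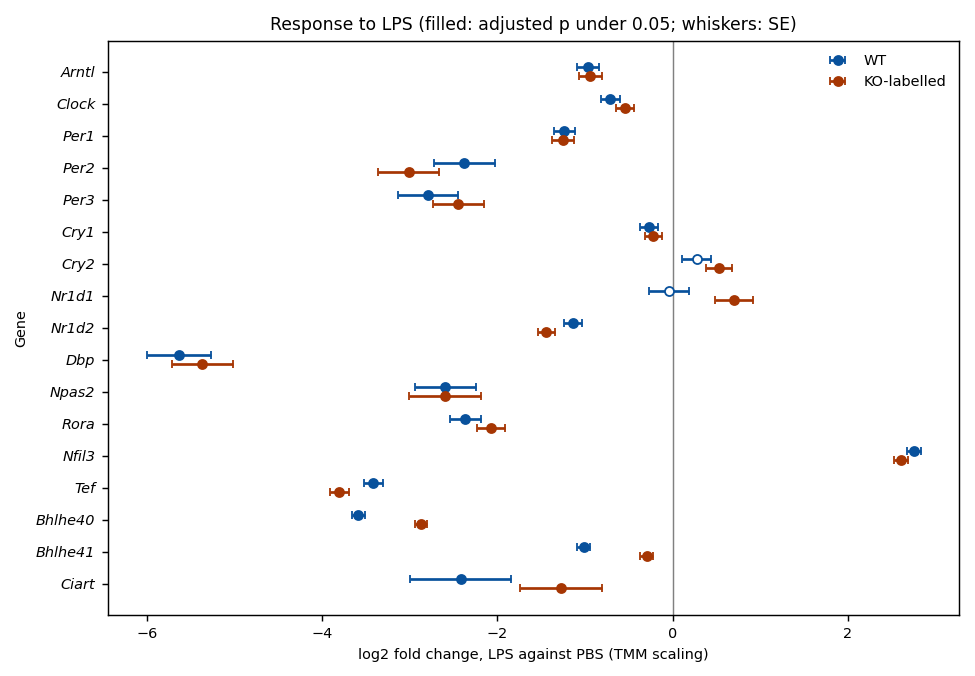
Log2 fold change of LPS against PBS (TMM scaling) for the 10 clock genes and 7 further clock transcription factors in WT and KO-labelled cells, with whiskers for the SE and filled points for adjusted p under 0.05. Dbp lies furthest to the left in both genotypes, Nfil3 furthest to the right, and Cry1, Cry2 and Nr1d1 lie nearest to 0 among the 10 in WT; the Dbp estimate depends on the prior count because its LPS counts were near 0.

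**Figure D3:**
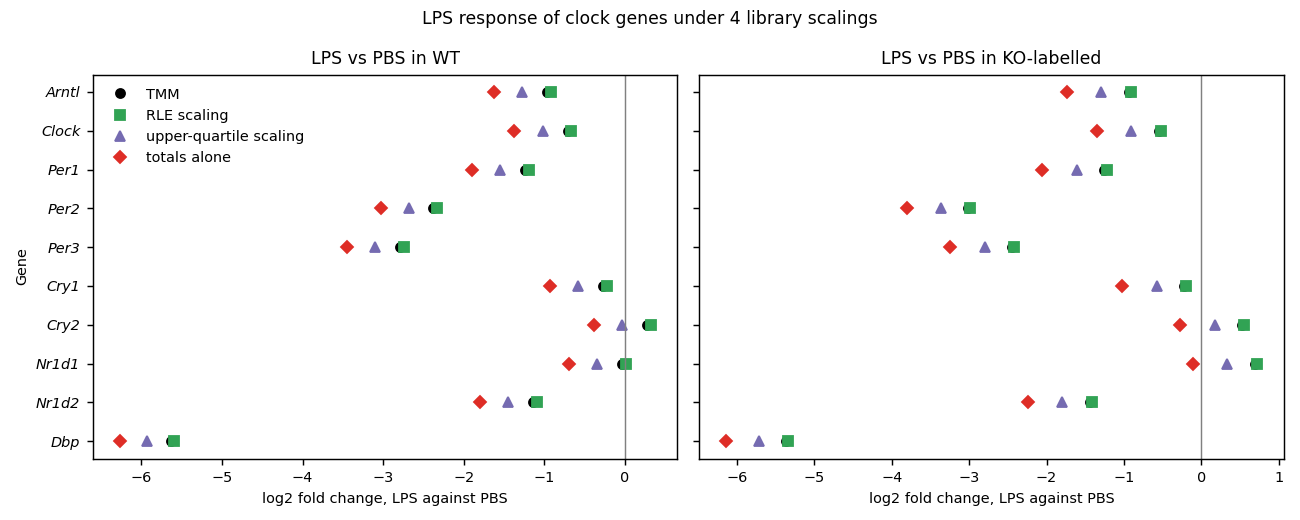
Log2 fold change of LPS against PBS of the 10 clock genes with 4 ways of scaling the libraries, in WT (left) and KO-labelled cells (right). Library totals alone shift all genes to the left, which takes Cry2 below 0 in both genotypes (-0.39 and -0.27) and Nr1d1 in KO-labelled cells (-0.10). Upper-quartile scaling shifts them to the left by less and takes Cry2 in WT to -0.0348. Nr1d1 in WT is close to 0 with TMM and RLE scaling and at -0.70 on totals, and the other genes stay on the same side under all 4.

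The wider clock network was read from a list of further transcription factors of the loop and its outputs, of which 7 are reported. After LPS 6 of the 7 fell and 1 rose in both genotypes, beside 40.2% of all genes called lower in WT and 41.1% in KO-labelled cells. The median log2 change was -2.42 in WT and -2.08 in KO-labelled cells, and these too are a description, since low genes passed the filter on their PBS libraries. The gene that rose was Nfil3, which encodes the repressor that competes with DBP and TEF at D-boxes. Nfil3 went from 9.44, 7.69 and 8.79 CPM to 57.8, 60.0 and 57.6 CPM in WT (2.76 ± 0.0760, adjusted p = 2.55e-15 by edgeR) and had a log2 change of 2.61 in KO-labelled cells. Tef, a D-box activator related to DBP, went the other way, from 27.6, 28.1 and 28.0 CPM to 3.12, 2.56 and 2.14 CPM in WT (-3.42 ± 0.108, adjusted p = 1.55e-14 by edgeR), with -3.80 in KO-labelled cells. Neither gene had an LPS library within its PBS range.

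Among the remaining factors, Npas2, which can stand in for CLOCK, changed by -2.59 in WT and -2.60 in KO-labelled cells on the log2 scale, and Rora, which activates Arntl through ROR elements, changed by -2.37 and -2.08. Npas2 had only 4 to 10 counts per library in WT LPS and 2 to 6 in KO-labelled LPS. Leaving out 1 library moved its change between -3.16 and -2.37 in WT and between -3.14 and -2.30 in KO-labelled cells. Bhlhe40 and Bhlhe41 (DEC1 and DEC2) encode repressors that bind E-boxes, and under PBS both were at higher CPM than any of the 10 clock genes. Bhlhe40 was at 316, 308 and 304 CPM in WT PBS and at 28.6, 22.4 and 26.2 CPM in WT LPS, a log2 change of -3.59. Bhlhe41 was at 177, 166 and 167 CPM in WT PBS and at 96.6, 78.0 and 78.0 CPM in WT LPS, a change of -1.01. In KO-labelled cells the change was -2.87 for Bhlhe40 and -0.30 for Bhlhe41. Ciart, a repressor of ARNTL and CLOCK, was below 1 CPM in every library and changed by -2.42 in WT and -1.28 in KO-labelled cells. Its KO-labelled change ran from -2.16 (without LPS replicate 3) to -0.80 (without LPS replicate 2) on leaving out 1 library and lost its call in 3 of those 12 fits, and without both WT LPS replicate 1 and KO-labelled PBS replicate 3 (-0.99, adjusted p = 0.0808 by edgeR).

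A list of 15 kinases, ubiquitin ligase subunits, cofactors and other genes that act on clock proteins was also read. In either genotype 4 rose and 6 fell, beside 76.7% of all genes called in WT and 79.9% in KO-labelled cells, and the median log2 change was -0.08 in WT and -0.02 in KO-labelled cells. Nampt, which makes the precursor of NAD and is itself an output of the clock, rose by 2.39 in WT and 2.42 in KO-labelled cells. Nono, a partner of PER proteins, rose by 1.74 and 1.78, and Fbxw11, a ubiquitin ligase subunit that acts on PER proteins, rose by 1.49 and 1.36. Csnk1e, a casein kinase that phosphorylates PER proteins, changed by -0.91 and -1.24. Usp2, a clock-driven deubiquitinase, changed by -1.69 and -2.53.

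The next comparison asked whether the genotype label went with other levels of the clock genes. Under PBS 2 of the 10 were higher in KO-labelled cells and none was lower, where 25.3% of all genes were called, 12.3% higher and 13% lower. The 2 were Nr1d2 and Cry2. Nr1d2 was at 24.1 to 26.7 CPM in KO-labelled and 17.1 to 19.9 CPM in WT cells (0.45 ± 0.0862, adjusted p = 0.00119 by edgeR), without overlap, and it stayed called in all 12 fits that left out 1 library. Cry2 was at 3.15 to 3.79 against 1.89 to 3.04 CPM (0.44 ± 0.152, adjusted p = 0.0449 by edgeR), and that call was lost in 8 of the 12 fits that left out 1 library, with the smallest difference, 0.26, without WT PBS replicate 3. It was also lost with upper-quartile scaling (adjusted p = 0.0568), without a filter (0.0508) and with the replicate block (0.056). With WT LPS replicate 1 and KO-labelled PBS replicate 3 both left out, Cry2 missed the threshold (adjusted p = 0.0712) and Clock passed it (0.29, adjusted p = 0.0285). Clock missed the threshold as reported (0.26, adjusted p = 0.0647 by edgeR), and it passed with RLE scaling (adjusted p = 0.0485), on totals alone (0.0263), with only the libraries compared (0.0097) and in 5 of the 12 fits that left out 1 library. For 5 of the 10 genes the 2 groups of PBS libraries did not overlap, against 48.1% of all genes. Arntl was among them in the other direction, at 5.92 to 6.74 CPM in KO-labelled and 7.08 to 7.92 CPM in WT cells (-0.21, adjusted p = 0.147 by edgeR), and Per2 (0.45, adjusted p = 0.146) and Per3 (0.44, adjusted p = 0.125) were higher without passing the test. Per3 passed it with only the libraries compared (adjusted p = 0.00912 by edgeR).

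After LPS 3 of the 10 were higher in KO-labelled cells and none was lower, where 41.4% of all genes were called, 22.1% higher and 19.3% lower. Cry2 was at 4.71 to 5.29 CPM in KO-labelled and 2.90 to 3.24 CPM in WT cells (0.69 ± 0.164, adjusted p = 0.00303 by edgeR). Clock was at 18.6 to 24.0 against 14.8 to 17.6 CPM (0.42 ± 0.113, adjusted p = 0.00689 by edgeR). These were the 2 of the 10 without overlap between the groups, against 45.6% of all genes. The Nr1d1 call, at 1.90 to 3.73 against 1.58 to 2.20 CPM (0.60 ± 0.233, adjusted p = 0.0482 by edgeR), had overlapping groups and was lost in 10 of the 12 fits that left out 1 library, with the smallest difference, 0.36, without KO-labelled LPS replicate 3. It was also lost with DESeq2, the replicate block, upper-quartile scaling, library totals, no filter, a minimum of 10 counts or only the libraries compared, at adjusted p from 0.0502 to 0.0989. The neutrophil sum, which came from Mmp8, was higher in the KO-labelled libraries than in WT under either treatment. The summed fibroblast and T cell markers were lower there under either treatment. Mesothelium markers were lower under PBS, and the muscle markers were lower in replicate 3 under PBS and all 3 after LPS. The part of these markers in the differences was not tested.

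**Figure D4:**
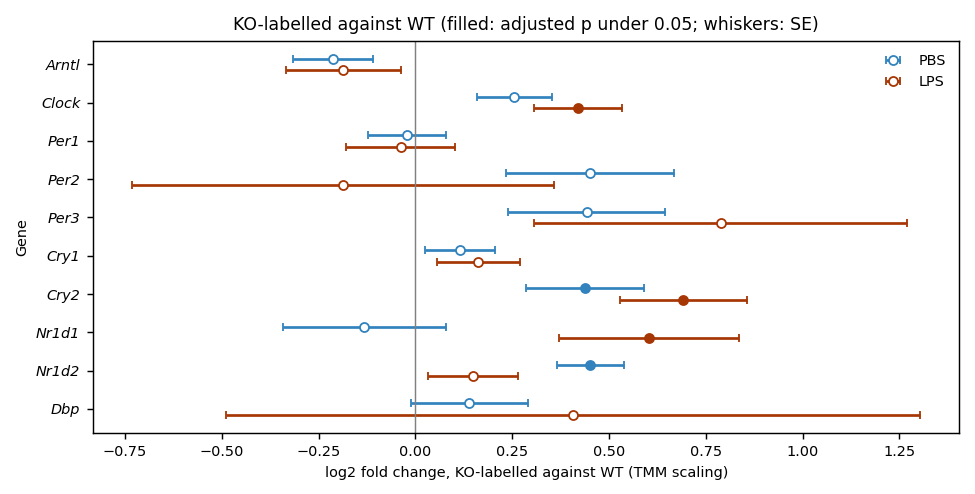
Log2 fold change of KO-labelled against WT cells (TMM scaling) for the 10 clock genes under PBS and after LPS, with whiskers for the SE and filled points for adjusted p under 0.05. Nr1d2 and Cry2 passed the test under PBS, and Clock, Cry2 and Nr1d1 after LPS; the whiskers of Per2, Per3 and Dbp after LPS are wide because few counts remained.

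A difference between the genotype labels in the LPS response was not detected for the 10 genes at this number of libraries. The interaction term of the edgeR quasi-likelihood test was called for 0 of the 10, where 18% of all genes were called. Before adjustment 1 was under 0.05, Nr1d1, with an interaction of 0.73 ± 0.315 (SE, adjusted p = 0.122). DESeq2 also called 0, with Nr1d1 and Nr1d2 under 0.05 before adjustment. Among the related factors, the interaction was called for 2 of 7, Bhlhe40 (0.71 ± 0.0970, adjusted p = 0.000119 by edgeR) and Bhlhe41 (0.72 ± 0.104, adjusted p = 0.000213 by edgeR). Both fell less in KO-labelled cells, where after LPS Bhlhe40 was at 49.6, 48.5 and 50.6 CPM and Bhlhe41 at 128, 126 and 138 CPM, above every WT LPS library.

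The relative levels of clock genes were then compared as an account of phase, since Arntl and the genes that peak opposite to it take different relative levels at different hours in clock-synchronised cells. For each library the log2 CPM of another gene was subtracted from that of Arntl, with a prior count of 2, and no test was made. Under PBS, Arntl minus Nr1d2 was -1.48 to -1.10 in WT and -2.03 to -1.88 in KO-labelled cells. Arntl minus Per3 was 1.04 to 1.52 in WT and 0.50 to 0.78 in KO-labelled cells, and Arntl minus Per2 was 1.998 to 2.34 and 1.37 to 1.76. These 3 differences were lower in every KO-labelled PBS library than in any WT PBS library. All 3 hold the Arntl level, which itself did not overlap between these groups. Among single genes, 48.1% of all tested did not overlap between them, so nothing is read from the 3. Arntl minus Dbp was 0.58 to 1.10 and 0.46 to 0.58, Arntl minus Per1 averaged -1.19 and -1.38, and Arntl minus Nr1d1 averaged 1.91 and 1.82, with overlap for each.

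LPS moved these differences in unlike directions. Arntl minus Dbp rose from a mean of 0.86 to 4.68 in WT and from 0.51 to 4.17 in KO-labelled cells, although the LPS values depend on the prior count and were 5.76 and 4.78 with a prior count of 0.5. Arntl minus Per2 rose from 2.16 to 3.43 and from 1.51 to 3.29, and Arntl minus Per3 from 1.25 to 3.03 and from 0.61 to 2.15. Arntl minus Per1 moved from -1.19 to -0.92 in WT and from -1.38 to -1.05 in KO-labelled cells, and Arntl minus Nr1d2 from -1.31 to -1.14 and from -1.97 to -1.46. Arntl minus Nr1d1 went down, from 1.91 to 0.99 and from 1.82 to 0.27. The level of Arntl itself fell along with all 3 Per genes and Dbp. No time of day is in the labels, so the hour of harvest and the groups cannot be told apart.

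**Figure D5:**
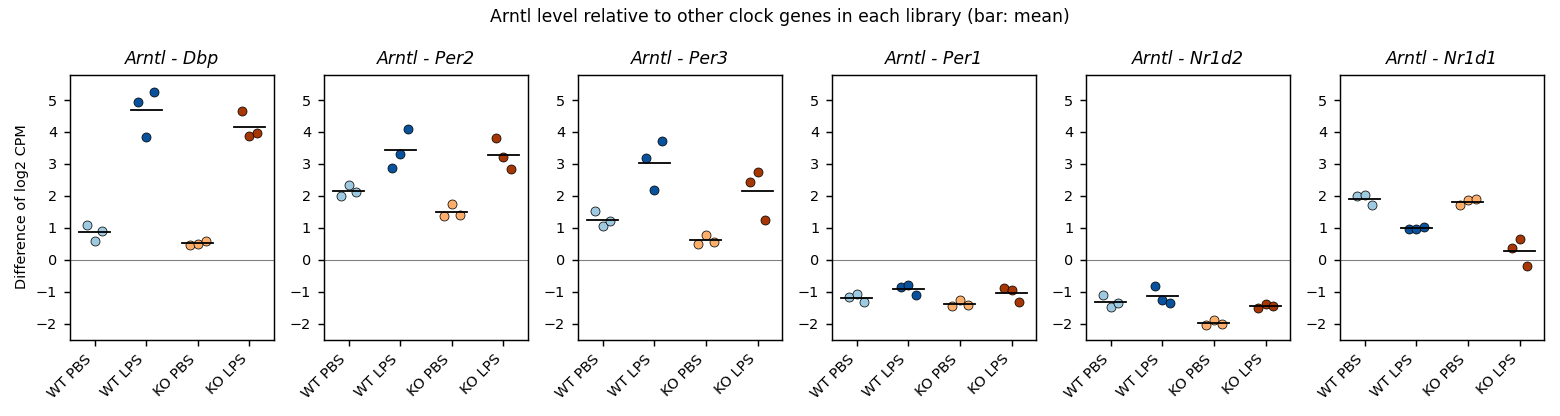
Difference in log2 CPM between Arntl and 6 other clock genes in each of the 12 libraries, with bars for group means. LPS raised the difference to Dbp, Per2 and Per3 and lowered that to Nr1d1, and under PBS the differences to Per2, Per3 and Nr1d2 were below the WT range in each of the 3 KO-labelled libraries. These 3 differences share the Arntl level, and single genes without overlap between the PBS groups were 48.1% of all tested.

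The genes whose levels followed Arntl and Nr1d1 most closely over the 12 libraries were named by Pearson's r of log2 CPM among genes at a mean of at least 5 CPM. For Arntl these were Cog6 (r = 0.986), Tanc2 (r = 0.986) and Acsf2 (r = 0.984), and 643 of 8722 genes were above 0.95. For Nr1d1 they were Cnot1 (r = 0.922), Cltc (r = 0.916) and Trak2 (r = 0.912), and 0 of 8723 were above 0.95. The 12 points share the 4 groups, so the values for Arntl largely describe the fall with LPS, and no p is given.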

How the data were processed

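RNA of 12 libraries was sequenced single-end (50 bases, BGISEQ-500). The authors deposited expected counts, that is estimated counts of reads per gene, of which 24.6% to 26.9% carried decimals, without scaling between libraries. The submitters' processing notes name Bowtie2, RSEM 1.3.1 and GRCm38.p6, whereas the methods of the study name STAR and HTSeq. Reads shared between overlapping genes could be split among them, and strand use is not stated.

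The counts were rounded and tested with edgeR 4.0.16 (limma 3.58.1, R 4.3.3): filterByExpr, TMM scaling, robust quasi-likelihood fit with 1 mean per group over all 12 libraries, 5 two-sided contrasts, Benjamini-Hochberg adjustment over the 12064 genes tested, threshold 0.05. The edgeR test was also run on simulated counts in which few genes changed. Most genes were called with LPS here, so that run does not check the scaling. DESeq2 1.42.0, other scalings and filters, a replicate block and leaving out each library were the alternatives. SDs, ranges and overlaps are over 3 libraries per group. P-values describe the spread between these libraries. Exact intervals on summed counts cover counting error only. Exons came from GENCODE M21 (GRCm38) and promoters from RefSeq. TMM factors were 1.258 to 1.314 under PBS and 0.744 to 0.808 after LPS, so absolute direction depends on scaling. Named were the 10 genes, the listed factors that could be tested, the list members with the largest changes and Ythdf1. The members and lists were chosen with earlier results of these data known. Columns of fold changes or p-values were not used. Ly6g, Ngp, Ighm, Epx and Prg2 were not analysed here.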

Additional observations from a re-analysis of the deposited data

Results flagged for a closer look

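The change with LPS differed between the genotype labels, by the interaction term of the edgeR quasi-likelihood test, for 0 of the 10 clock genes, 2 of 7 further factors, 1 of 15 modifiers and Ythdf1, where 18% of all genes were called. Bhlhe40 (interaction 0.71, adjusted p = 0.000119) and Bhlhe41 (0.72, adjusted p = 0.000213) fell less in KO-labelled than in WT cells, in 3 of 3 LPS libraries each. Csnk1e fell more in KO-labelled cells (-0.33, adjusted p = 0.0183), from 46.5 to 47.1 CPM under PBS to 19.3 to 20.1 CPM after LPS, and the call was lost without WT LPS replicate 3 (-0.27). Ythdf1 rose less in KO-labelled cells (-0.42, adjusted p = 0.00177), from a PBS level that was higher by 0.40 than in WT (adjusted p = 0.000133), while after LPS the genotypes differed by -0.03 (adjusted p = 0.724). Bhlhe41 shares 19% of its exon bases with another annotated transcript on the opposite strand.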

How the results depend on the processing

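The number of clock genes called after LPS in WT was 8, and 5 with a minimum of 10 counts in every library, which left 7 to test and dropped Per2, Per3 and Dbp. Under PBS the genotype comparison called 2, 3 with RLE scaling and on totals, 1 with upper-quartile scaling, 1 without a filter, 1 with the replicate block and 4 with only the libraries compared. The interaction called 0, and 1 on library totals alone (Nr1d2, -0.44, adjusted p = 0.0467). The block was fitted although the replicate numbers are shared only as numbers (correlations of deviations between same-numbered libraries from -0.076 to 0.127, with several libraries closest to another number), and it left the counts of the other 4 comparisons the same or within 1 gene. Arntl minus Dbp after LPS was 5.76 in WT and 4.78 in KO-labelled cells with a prior count of 0.5. With LPS in WT the sign turned for Cry2 with upper-quartile scaling (-0.0348) and totals (-0.39), and for Nr1d1 with RLE scaling (0.0076) and DESeq2 (0.0079). In KO-labelled cells it turned on totals for Cry2 (-0.27) and Nr1d1 (-0.10). Between genotypes it turned for Per1 under PBS on totals (0.0275). Leaving out both WT LPS replicate 1 and KO-labelled PBS replicate 3, chosen after seeing the data, turned Per1 under PBS (0.0091) and, after LPS, Per1 (0.0426), Per2 (0.42) and Ythdf1 (0.0131), and left 8 (WT) and 9 (KO-labelled) genes called with LPS, 2 between genotypes under PBS, 3 after LPS and 0 for the interaction. Leaving out 1 library at a time gave 7 to 8 genes called in WT and 9 to 10 in KO-labelled cells with LPS, 1 to 3 between genotypes under PBS, 2 to 3 after LPS and 0 to 1 for the interaction. It turned, in range, Dbp (-0.15 to 1.67), Per1 (-0.16 to 0.0837), Per2 (-0.58 to 0.42) and Ythdf1 (-0.0552 to 0.0115) between genotypes after LPS, Per1 under PBS (-0.11 to 0.0417) and Nr1d1 with LPS in WT (-0.17 to 0.0694). The Cry1 call was lost in 3 of these fits in WT and 8 in KO-labelled cells, the Cry2 call under PBS in 8 and the Nr1d1 call between genotypes after LPS in 10. The cause was not tested, apart from genes dropped by the filter. Per2, Per3 and Dbp after LPS are limited by depth.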

Other observations

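Usp2 had the largest difference between genotypes under PBS among the listed clock modifiers, at 7.42, 6.04 and 6.87 CPM in KO-labelled and 3.0, 2.58 and 2.72 CPM in WT cells (1.29 ± 0.123, adjusted p = 1.69e-06 by edgeR). Every KO-labelled PBS library lay above every WT one. After LPS the difference was 0.45 (adjusted p = 0.2 by edgeR), and the interaction just missed the threshold (-0.84 ± 0.285, adjusted p = 0.0513 by edgeR). The neutrophil sum, which came from Mmp8, was higher in the same libraries. The fibroblast, T cell and mesothelium markers and, in replicate 3, the muscle markers were lower there. The part of all these markers was not tested.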
